A study of Mus musculus with 6 samples.

Results

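The desmosomal cadherin and plaque genes are 10 genes, taken by name from the 52636 rows of a gene table: the desmogleins Dsg1a, Dsg1b, Dsg2 and Dsg3, the desmocollins Dsc1, Dsc2 and Dsc3, the plakophilins Pkp1 and Pkp3, and desmoplakin, Dsp. Their mRNA levels were measured by bulk RNA sequencing in mouse esophageal organoids, which are epithelial cultures grown in a gel, under 3 treatments with 2 libraries each. The first group (TGFb1+BMP4+ibuprofen) received TGFb1 at 1 ng/ml, BMP4 at 20 ng/ml and ibuprofen at 500 uM. The second (TGFb1+BMP4) received the same ligands without ibuprofen. The third, labelled as the control, received A8301, an inhibitor of TGFb receptors, at 500 nM (TGFb inhibitor). Each treatment lasted 72 h and was renewed every 24 h. Every group carried the same genotype, Krt5CreER:RosaSmoM2 (K5:Smo), in which a tamoxifen-activated Cre, driven by the Krt5 promoter, switches on SmoM2 (a Smoothened protein that signals in the Hedgehog pathway without ligand). The esophagi were taken 5 days after tamoxifen and the cells were kept in culture for 13 days. Whether the inhibitor was also present in the ligand groups is not stated. If it was not, the effect of the ligands and that of the absence of the inhibitor cannot be told apart, since no group is labelled as lacking both. Separate cultures or animals are not named for the replicates, so p-values reflect only the spread between these libraries, which may be technical.

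A desmosome is a button-like junction that fastens epithelial cells to each other. Desmogleins and desmocollins span the membrane and bind those of the next cell, while plakoglobin (Jup) and plakophilins hold their tails in a plaque that desmoplakin ties to keratin filaments. In skin, Dsg3 and Dsc3 are strongest in the lower layers and Dsg1 and Dsc1 in the upper, differentiated layers. Dsg2 is the desmoglein of simple epithelia and is also made by less differentiated cells.

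Levels are given as deposited CPM (counts scaled to a common library total), and differences as log2 fold changes of TMM-scaled CPM + 1 with their standard error (SE), from 1 limma model over the 6 libraries with Benjamini-Hochberg adjustment over 18241 tested genes. A gene was called when its adjusted p was under 0.05. Depth was 6924160 and 6413873 reads with ibuprofen, 6977533 and 6904541 with TGFb1+BMP4, and 7307043 and 7730582 with the inhibitor, so that 3 reads equal 0.388 to 0.468 CPM. All 6 epithelial markers (Epcam, Cdh1, Krt5, Krt14, Trp63 and Sox2) were present in each library. They summed to 11500 to 11794 CPM with ibuprofen, 11743 to 13636 with TGFb1+BMP4 and 5809 to 5856 with the inhibitor. Krt14 made most of that sum in the ligand groups. With TGFb1+BMP4 over the inhibitor 3 of the 6 were called higher (Epcam, Krt5, Krt14), 2 lower (Trp63 and Sox2) and Cdh1 neither. Over all tested genes 20.4% were called higher and 19.9% lower. Markers of other cell types also moved with the groups. The 7 fibroblast markers summed to 1482 to 1870 CPM with ibuprofen, 1859 to 2854 with TGFb1+BMP4 and 165 to 227 with the inhibitor. None was at 0 in a library. Col1a1, Col1a2 and Col3a1 made most of the sum in the ligand groups. Their means were 1087, 792 and 209 CPM with TGFb1+BMP4 and 18.4, 36.5 and 11.4 CPM with the inhibitor. All 7 were called higher with TGFb1+BMP4 over the inhibitor, beside 20.4% of all tested genes, from 1.89-fold (Dcn) to 55.45-fold (Col1a1). With ibuprofen over TGFb1+BMP4, 1 was called higher (Pdgfra) and 3 lower (Col1a1, Col3a1, Thy1), beside 10.7% and 9.01%. The 5 muscle markers summed to 881 to 1144 CPM with ibuprofen, 1034 to 1360 with TGFb1+BMP4 and 509 to 582 with the inhibitor. Actg2 was at 0 in all 6 libraries. Immune markers summed to at most 61.7 CPM in any library and endothelial markers to at most 9.64, and Ptprc, Cd3e, Myh11 and Kdr did not pass the filter on low values. The part of these cells in the results below was not tested. In bulk RNA, fewer cells of a type and less RNA per cell cannot be told apart.

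All 10 genes passed the filter of at least 1 CPM in at least 2 libraries. Together they took 1.62% and 1.97% of the CPM in the ibuprofen libraries, 2.14% and 2.12% in the TGFb1+BMP4 libraries and 1.76% and 1.85% in the inhibitor libraries. Compared per kilobase of exon, Dsp had the highest level of the 10 in each group, at a mean of 908 ± 128 CPM per kb with ibuprofen, 1083 ± 23.2 with TGFb1+BMP4 and 764 ± 12.3 with the inhibitor (SD, n = 2 each). Those means placed Dsp at ranks 51, 42 and 60 among 18200 tested genes with a known length. Below it, Pkp1, Dsc2 and Dsg3 took places 2 to 4 in each group, with Dsc2 above Pkp1 with TGFb1+BMP4 and Pkp1 above Dsc2 in the other groups. The lower end of the order differed between groups. With the inhibitor the last places ran Pkp3, Dsc1, Dsg1a and Dsg2, with no overlap between neighbours. With TGFb1+BMP4 they ran Dsg1a, Pkp3, Dsg2 and Dsc1, and the libraries of Dsg1a and Pkp3 overlapped. With ibuprofen they ran Pkp3, Dsg1b, Dsg2, Dsg1a and Dsc1, and Pkp3 overlapped Dsg1b as Dsg1a overlapped Dsc1.

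**Figure D1:**
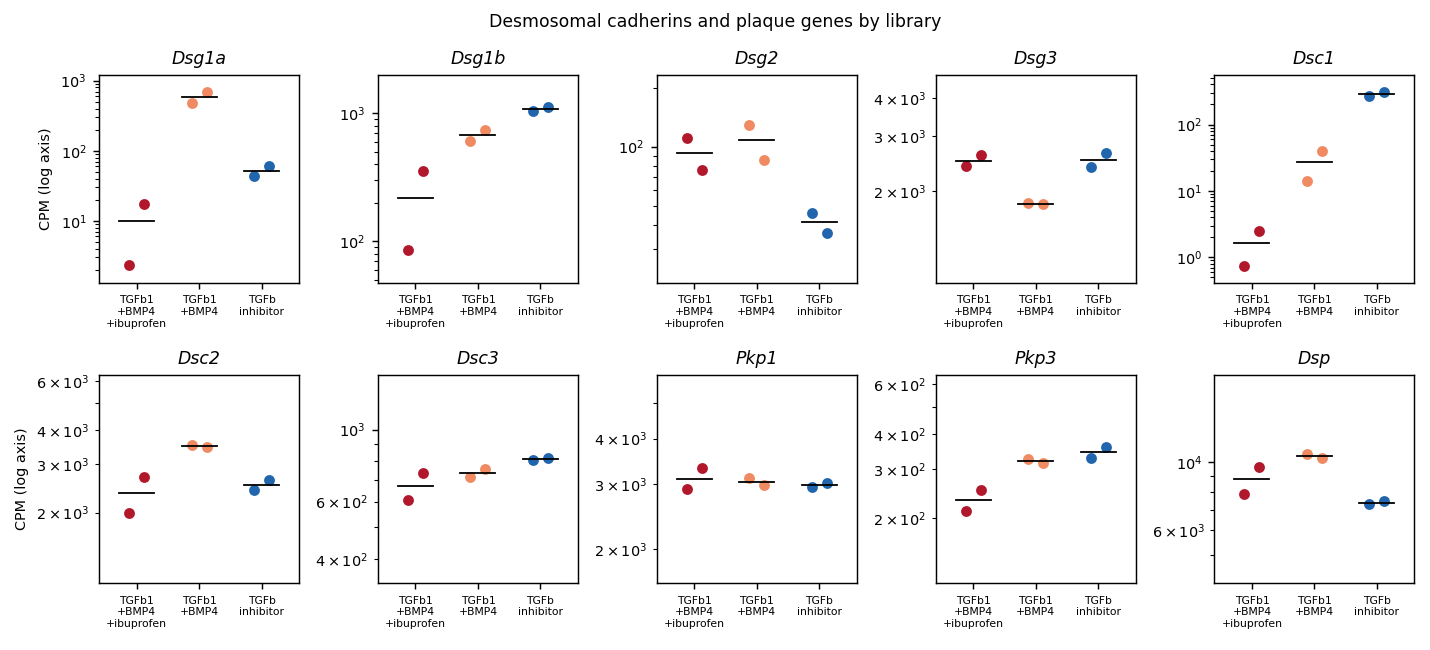
CPM of each gene in each library on a log axis whose range differs by panel; points are libraries, with replicate 1 left of replicate 2, and black lines are group means. Dsg1a was highest with TGFb1+BMP4 (486 and 680 CPM) and lowest with ibuprofen (2.35 and 17.3 CPM), Dsc1 was highest with the inhibitor (269 and 314 CPM), and the 6 Pkp1 values lay between 2903 and 3316 CPM.

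Dsg1a, one of the mouse copies of desmoglein 1, was the member with the largest difference between the ibuprofen and the TGFb1+BMP4 groups. It stood at 2.35 and 17.3 CPM in the ibuprofen libraries, 486 and 680 CPM in the TGFb1+BMP4 libraries and 43.4 and 60.3 CPM in the inhibitor libraries. No groups overlapped. With TGFb1+BMP4 it was higher than with the inhibitor by 3.47 ± 0.63 log2 units (limma, adjusted p = 0.00277), an 11.1-fold rise with a 95% interval of 4.10 to 30.04. With ibuprofen added it fell by 6.14 ± 0.63 log2 units relative to TGFb1+BMP4 (adjusted p = 0.000473), a mean 59.2-fold lower in CPM. Set against the inhibitor, the ibuprofen group was lower by a log2 change of -2.66 ± 0.63 (adjusted p = 0.00988). The ibuprofen libraries differed from each other: without ibuprofen replicate 1 the change from TGFb1+BMP4 was -4.90, and without replicate 2 it was -7.38, both still called. Against the inhibitor those values were -1.42 and -3.90, also called, and the call was lost without inhibitor replicate 2 (adjusted p = 0.0575).

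Dsg1b, the neighbouring copy, was called lower in both ibuprofen comparisons, as Dsg1a was, but not higher with TGFb1+BMP4 over the inhibitor. It was measured at 85.8 and 353 CPM with ibuprofen, 611 and 745 CPM with TGFb1+BMP4 and 1042 and 1110 CPM with the inhibitor, so every TGFb1+BMP4 library lay below every inhibitor library and every ibuprofen library below both groups. The change of TGFb1+BMP4 over the inhibitor, -0.66 ± 0.51, was not called (adjusted p = 0.333). The shared estimate of the spread took in the distant ibuprofen libraries, and without ibuprofen replicate 1 or 2 the same change of -0.66 was called (adjusted p = 0.00283 and 0.00252). Dsg1b was lower with ibuprofen than with TGFb1+BMP4, at a log2 change of -1.88 ± 0.51 (adjusted p = 0.034), which was -0.85 without ibuprofen replicate 1 and -2.90 without replicate 2. That call was lost without any one of the 4 libraries of the other groups (adjusted p from 0.0506 to 0.107). Against the inhibitor the change with ibuprofen was -2.54 ± 0.51 (adjusted p = 0.00442), or -1.52 and -3.56 without ibuprofen replicate 1 and 2.

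The ratio of Dsg1a to Dsg1b CPM put both copies on 1 scale. It was 0.0274 and 0.0491 with ibuprofen, 0.795 and 0.913 with TGFb1+BMP4 and 0.0416 and 0.0543 with the inhibitor. The TGFb1+BMP4 libraries thus stood far above the other 4, whose ranges overlapped. Summed over both copies, the level was 88.1 and 370 CPM with ibuprofen, 1098 and 1425 CPM with TGFb1+BMP4 and 1085 and 1170 CPM with the inhibitor. On this sum the TGFb1+BMP4 and inhibitor ranges overlapped. The 2 genes lie next to each other on chromosome 18 and are alike in sequence: 35.0% of the 50-base windows of Dsg1a transcripts and 48.4% of those of Dsg1b recur in another desmosomal cadherin, mostly in each other. How the counting treated reads that match both is not given in the sources used here, so the split between them is uncertain. Dsg2, Dsg3, Dsg4 and the desmocollins shared no such window.

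Dsg2, the desmoglein found in simple epithelia too, was low but higher in both ligand groups. Its levels were 110 and 75.6 CPM with ibuprofen, 129 and 85.7 CPM with TGFb1+BMP4 and 45.8 and 36.5 CPM with the inhibitor. The first pair of groups overlapped and both lay above the inhibitor libraries. With TGFb1+BMP4 it rose over the inhibitor by 1.35 ± 0.23 log2 units (adjusted p = 0.00212), and with ibuprofen by 1.22 ± 0.23 (adjusted p = 0.00345). Ibuprofen over TGFb1+BMP4 gave -0.13 ± 0.23 (adjusted p = 0.741), a ratio of 0.913 (95% interval 0.632 to 1.32). Exons of Dsg2 overlap those of Gm16090 on the opposite strand, and whether counting used strand is not given in the sources used here.

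Dsg3, the desmoglein of the lower layers in skin, had the highest CPM of any single desmoglein gene in each library. It was measured at 2408 and 2606 CPM with ibuprofen, 1824 and 1816 CPM with TGFb1+BMP4 and 2396 and 2644 CPM with the inhibitor. The TGFb1+BMP4 libraries were below the other 4. The log2 change was -0.46 ± 0.12 for TGFb1+BMP4 over the inhibitor (adjusted p = 0.0138), 0.53 ± 0.12 for ibuprofen over TGFb1+BMP4 (adjusted p = 0.0145) and 0.07 ± 0.12 for ibuprofen over the inhibitor (adjusted p = 0.654). The last of these is a 1.05-fold ratio (95% interval 0.875 to 1.26). The fall with TGFb1+BMP4 lost its call when the second inhibitor library (adjusted p = 0.134) or the second TGFb1+BMP4 library (0.0551) was left out, as did the rise with ibuprofen when the second TGFb1+BMP4 library (0.0657) or the second ibuprofen library (0.0563) was left out.

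Dsc1, the desmocollin of the upper layers in skin, was the gene with the steepest order across the groups. It was at 0.75 and 2.498 CPM in the ibuprofen libraries, from 5 and 16 reads, at 14.0 and 40.0 CPM with TGFb1+BMP4, and at 269 and 314 CPM with the inhibitor. No library of one group overlapped another group. Its log2 change was -3.55 ± 0.44 for TGFb1+BMP4 over the inhibitor (adjusted p = 0.000384), -3.28 ± 0.44 for ibuprofen over TGFb1+BMP4 (adjusted p = 0.00159) and -6.82 ± 0.44 for ibuprofen over the inhibitor (adjusted p = 1.36e-05). By mean CPM these were 10.8-fold, 16.6-fold and 179-fold lower. At so few reads with ibuprofen the size depends on the added 1 CPM: the last 2 changes were -3.93 and -7.54 with a pseudocount of 0.1 and -4.02 and -7.62 with voom on recovered reads. Leaving out each library in turn kept all 3 calls. Leaving out TGFb1+BMP4 replicate 1 moved the first change to -2.85 and the second to -3.97, and leaving out replicate 2 moved them to -4.24 and -2.59.

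Dsc2, the most abundant desmocollin here, was at 1994 and 2701 CPM with ibuprofen, 3524 and 3473 CPM with TGFb1+BMP4 and 2412 and 2621 CPM with the inhibitor. The TGFb1+BMP4 libraries were above the other 4. The rise over the inhibitor was 0.48 ± 0.16 log2 units (adjusted p = 0.04) and was lost without any one of the 4 libraries compared (adjusted p from 0.0709 to 0.206). Ibuprofen over TGFb1+BMP4 gave -0.52 ± 0.16, just outside the threshold (adjusted p = 0.0529), and passed it with the replicate number as a block (adjusted p = 0.0316). Against the inhibitor, the value with ibuprofen was -0.04 ± 0.16 (adjusted p = 0.881). Dsc3 is the desmocollin of basal cells in skin. It was at 607 and 736 CPM with ibuprofen, 715 and 758 CPM with TGFb1+BMP4 and 803 and 818 CPM with the inhibitor. None of its 3 changes was called. The widest was -0.20 ± 0.11 for ibuprofen over the inhibitor (adjusted p = 0.192), or 0.872-fold (95% interval 0.731 to 1.04).

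Pkp1, the plakophilin of stratified epithelia, and Pkp3, which is made in most epithelia, gave different readings under ibuprofen. Pkp1 was at 2903 and 3316 CPM with ibuprofen, 3124 and 2982 CPM with TGFb1+BMP4 and 2940 and 3033 CPM with the inhibitor. The groups overlapped throughout and no change was called. Its ratios were 1.03 for TGFb1+BMP4 over the inhibitor (95% interval 0.840 to 1.26) and 1.07 for ibuprofen over TGFb1+BMP4 (0.874 to 1.31). Pkp3 was at 212 and 252 CPM with ibuprofen, 325 and 314 CPM with TGFb1+BMP4 and 327 and 361 CPM with the inhibitor. The ibuprofen libraries were below all others. Its log2 change was -0.39 ± 0.11 for ibuprofen over TGFb1+BMP4 (adjusted p = 0.0386), -0.49 ± 0.11 for ibuprofen over the inhibitor (adjusted p = 0.00788) and -0.10 ± 0.11 for TGFb1+BMP4 over the inhibitor (adjusted p = 0.52). The first of these was lost without TGFb1+BMP4 replicate 1 (adjusted p = 0.132), TGFb1+BMP4 replicate 2 (0.0639), ibuprofen replicate 1 (0.195), inhibitor replicate 1 (0.0535) or inhibitor replicate 2 (0.0526), and the second without inhibitor replicate 2 (0.064).

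Dsp, the plaque protein that anchors keratin filaments, was at 7896 and 9646 CPM with ibuprofen, 10621 and 10304 CPM with TGFb1+BMP4 and 7299 and 7467 CPM with the inhibitor. Each ibuprofen value lay between those of the other groups. The log2 change was 0.51 ± 0.17 for TGFb1+BMP4 over the inhibitor (adjusted p = 0.0404), -0.19 ± 0.17 for ibuprofen over TGFb1+BMP4 (adjusted p = 0.486) and 0.32 ± 0.17 for ibuprofen over the inhibitor (adjusted p = 0.164). The first call was lost without any one of the 4 libraries compared (adjusted p from 0.0657 to 0.207), and under 2 other ways of computing the scaling factors (0.0548 and 0.0598). Exons of Dsp overlap the transcript model Gm10129 on the opposite strand. Dsp was the 1 gene of the 10 with a RefSeq promoter sequence at hand. It is shown for that reason, and runs from 250 bases before to 50 bases after the gene's start (GRCm38.p6, chr13:38151044-38151343, plus strand), with GGCGCC in capitals:
Dsp promoter: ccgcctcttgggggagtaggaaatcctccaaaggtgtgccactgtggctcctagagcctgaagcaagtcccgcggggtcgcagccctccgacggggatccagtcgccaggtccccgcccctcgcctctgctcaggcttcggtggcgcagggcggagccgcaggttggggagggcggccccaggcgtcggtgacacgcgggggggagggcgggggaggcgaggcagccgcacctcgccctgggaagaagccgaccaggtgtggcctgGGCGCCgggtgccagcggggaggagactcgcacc
The window was 73% G or C. GGCGCC, an element bound by the SMADs of the BMP branch, matched once, starting at position +17 from the start site, and 11.9% of 32851 mouse promoter windows of this length held at least 1 match on either strand. The SMAD palindrome GTCTAGAC (in 0.213% of windows), the grainyhead-type motif AACNNGTT (4.204%) and the AP-1 motif TGANTCA (7.81%) had no match there. Of the other desmosome genes with a promoter sequence, Jup, called higher with TGFb1+BMP4, had no GGCGCC, and Pkp4, called lower, had 0 and 2 matches in its 2 windows. A match is a description of letters, not of binding.

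Counted together, 4 of the 10 genes were called higher (Dsg1a, Dsg2, Dsc2, Dsp) and 2 lower (Dsg3, Dsc1) with TGFb1+BMP4 than with the inhibitor. Over all tested genes 40.3% were called, 20.4% higher and 19.9% lower, and the median log2 change was -0.03 over the 10 genes and -0.003 over all. With ibuprofen over TGFb1+BMP4, 1 gene was called higher (Dsg3) and 4 lower (Dsg1a, Dsg1b, Dsc1, Pkp3), beside 19.7% of all genes called, 10.7% higher and 9.01% lower. The medians were -0.29 over the 10 genes and -0.008 over all. Without scaling factors, the split of all called genes in this comparison was 1549 higher and 2037 lower in place of 1957 and 1644, and among the 10 Dsc2 was then called too (adjusted p = 0.0256), which made 1 higher and 5 lower. With ibuprofen over the inhibitor, 1 was higher (Dsg2) and the same 4 lower, beside 40.7% of all genes called, 20.8% higher and 19.9% lower, with medians of -0.12 and -0.02. The libraries of the groups did not overlap for 9 of the 10 genes with TGFb1+BMP4 over the inhibitor (72.2% of all tested genes), for 7 with ibuprofen over TGFb1+BMP4 (58.8%) and for 7 with ibuprofen over the inhibitor (72.4%). These comparisons share libraries, so they are not independent of each other. Dsg1a, Dsg3 and Dsc1 were called in both the ligand and the ibuprofen comparison. Dsg1a and Dsg3 had opposite signs in them, and Dsc1 was lower in both.

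**Figure D2:**
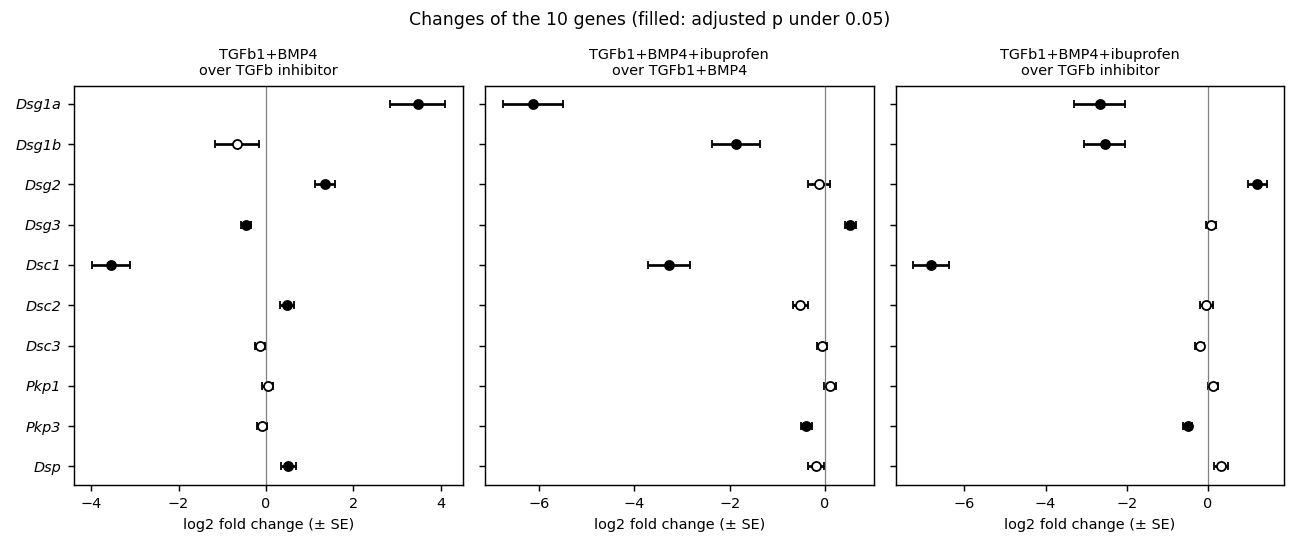
Log2 fold change (x axis, ± SE) of the 10 genes in the 3 comparisons, from limma over 6 libraries; filled points have an adjusted p under 0.05, and the x axis differs by panel. Dsg1a lies at 3.47 in the ligand comparison and at -6.14 in the ibuprofen comparison, Dsc1 at -3.55 and -3.28, while Dsc3 and Pkp1 are open points near 0 in every panel.

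Shares within a subfamily show how the make-up of the cadherin mRNAs differed, and do not depend on scaling between libraries. Dsg1a and Dsg1b together made 3.38% and 12.1% of all desmoglein CPM with ibuprofen, 35.9% and 42.7% with TGFb1+BMP4 and 30.7% and 30.3% with the inhibitor. Dsg3 made 92.3% and 85.2% with ibuprofen, 59.6% and 54.4% with TGFb1+BMP4 and 67.8% and 68.5% with the inhibitor. The ibuprofen libraries were thus nearest to a single-desmoglein make-up. Per kilobase of exon the Dsg1a and Dsg1b share averaged 12.6% with ibuprofen, 49.5% with TGFb1+BMP4 and 43.2% with the inhibitor, and the Dsg3 share 84.5%, 47.5% and 55.7%. On that scale the Dsg1a and Dsg1b share was below the Dsg3 share in 1 TGFb1+BMP4 library (46.2% and 50.4%) and above it in the other (52.9% and 44.7%). Among the desmocollins, Dsc1 made 0.0288% and 0.0726% with ibuprofen, 0.330% and 0.936% with TGFb1+BMP4 and 7.72% and 8.36% with the inhibitor, and Dsc2 averaged 77.6%, 82.1% and 69.5%. A 2-sided exact permutation test of 2 against 2 libraries cannot go below p = 0.333. Of 30 share comparisons, 28 reached that p (Benjamini-Hochberg 0.357), because their groups did not overlap. In the same exact test the exceptions, at p = 1, were Dsg2 for ibuprofen against TGFb1+BMP4 and Dsc3 for ibuprofen against the inhibitor.

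**Figure D3:**
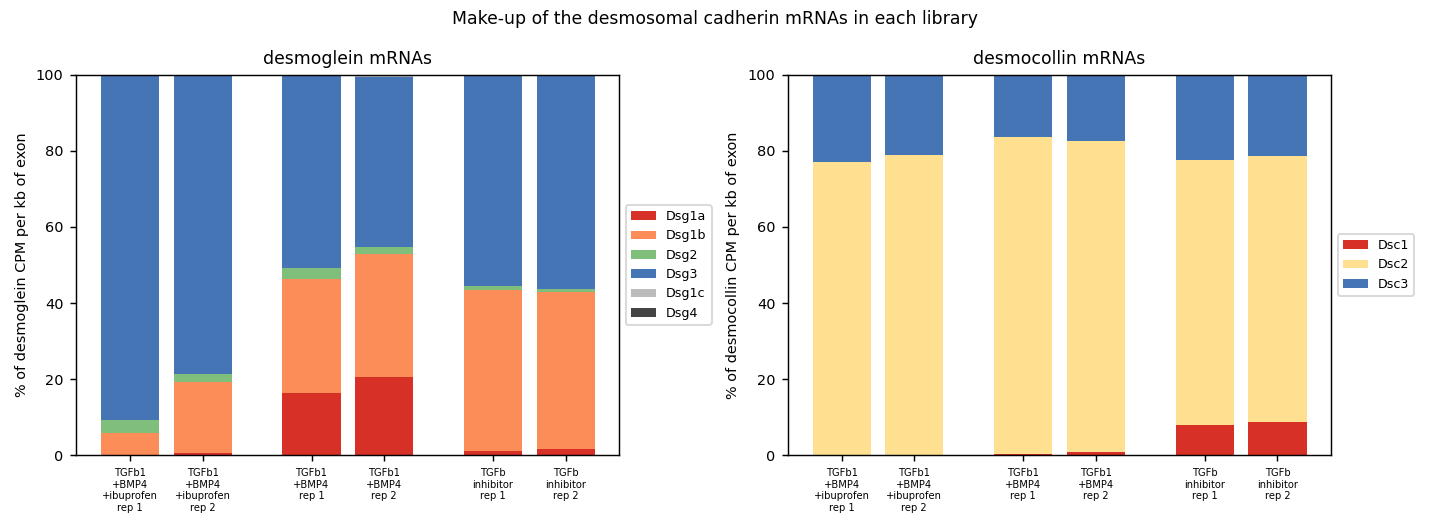
Share of each gene in the CPM per kilobase of exon of its subfamily (y axis, percent), 1 bar per library; Dsg1c and Dsg4 are too low to be seen. The Dsg1a and Dsg1b part averages 12.6% with ibuprofen, 49.5% with TGFb1+BMP4 and 43.2% with the inhibitor, and the Dsc1 part is visible mainly in the inhibitor libraries.

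The 6 other desmosome genes of a fixed list all passed the filter. With TGFb1+BMP4 over the inhibitor, 3 were called higher (Jup, Perp, Pkp2) and 1 lower (Pkp4), beside 20.4% higher and 19.9% lower over all tested genes. Jup, which encodes plakoglobin, was at 2149 and 2468 CPM with ibuprofen, 2437 and 2264 CPM with TGFb1+BMP4 and 1758 and 1878 CPM with the inhibitor. It rose by 0.38 ± 0.13 log2 units with TGFb1+BMP4 over the inhibitor (adjusted p = 0.0406) and by 0.42 ± 0.13 with ibuprofen over the inhibitor (0.0261). Both calls were lost without inhibitor replicate 1 (0.225 and 0.187) or inhibitor replicate 2 (0.111 and 0.0899), the first also without TGFb1+BMP4 replicate 1 (0.166) and the second without ibuprofen replicate 2 (0.115). Perp, a membrane protein needed for desmosome assembly in mouse epithelia, stood at 3825 and 4370 CPM with ibuprofen, 3689 and 3586 CPM with TGFb1+BMP4 and 2678 and 2549 CPM with the inhibitor. It rose by 0.49 ± 0.13 with TGFb1+BMP4 (0.017), a call lost without inhibitor replicate 1 (0.09), inhibitor replicate 2 (0.12) or TGFb1+BMP4 replicate 1 (0.0682), and by 0.73 ± 0.13 with ibuprofen over the inhibitor (0.00242).

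Pkp2, the plakophilin of heart and simple epithelia, was low, at 13.0 and 8.14 CPM with ibuprofen, 6.20 and 3.35 CPM with TGFb1+BMP4 and 0.55 and 0.80 CPM with the inhibitor. Its 3 groups did not overlap. It rose by 1.74 ± 0.32 with TGFb1+BMP4 (adjusted p = 0.00305), by 2.82 ± 0.32 with ibuprofen over the inhibitor (0.000245) and by 1.08 ± 0.32 with ibuprofen over TGFb1+BMP4 (0.0477). The last was no longer called when either inhibitor library, TGFb1+BMP4 replicate 2 or either ibuprofen library was left out (0.0512 to 0.244), nor without scaling factors (0.0572), with pseudocounts of 0.5 (0.0571) or 0.1 (0.0771) or with a filter of 5 CPM (0.053). At these levels the size rests on the pseudocount: at 0.1 the changes over the inhibitor were 2.61 with TGFb1+BMP4 and 3.84 with ibuprofen, and with voom 2.68 and 3.93. Pkp4, a relative of the plakophilins, was at 76.3 and 76.0 CPM with ibuprofen, 78.3 and 103 CPM with TGFb1+BMP4 and 123 and 129 CPM with the inhibitor, and fell by 0.48 ± 0.12 with TGFb1+BMP4 (0.0124) and by 0.64 ± 0.12 with ibuprofen over the inhibitor (0.00298). The call with TGFb1+BMP4 was lost without inhibitor replicate 2 (0.0826) or TGFb1+BMP4 replicate 1 (0.0654). Dsg1c, a further Dsg1 copy, was at 0.30 and 3.15 CPM with ibuprofen, 5.05 and 9.99 CPM with TGFb1+BMP4 and 5.65 and 6.00 CPM with the inhibitor. It was called lower with ibuprofen over TGFb1+BMP4 (-1.77 ± 0.51, adjusted p = 0.0415) and over the inhibitor (-1.50 ± 0.51, 0.0428). The first call was lost without either inhibitor library, TGFb1+BMP4 replicate 2 or ibuprofen replicate 1 (0.0621 to 0.174), and the second without either inhibitor library or ibuprofen replicate 1 (0.124 to 0.216). With a pseudocount of 0.1 they were -2.60 and -2.30 and neither was called (0.0685 and 0.0603), while voom gave -2.72 and -2.42 (0.049 and 0.0436). Of the 50-base windows of Dsg1c transcripts, 29.0% recur in another desmosomal cadherin, so its counts are uncertain as well. Dsg4, the desmoglein of hair, stayed at 1.75 to 4.35 CPM and was not called.

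**Figure D4:**
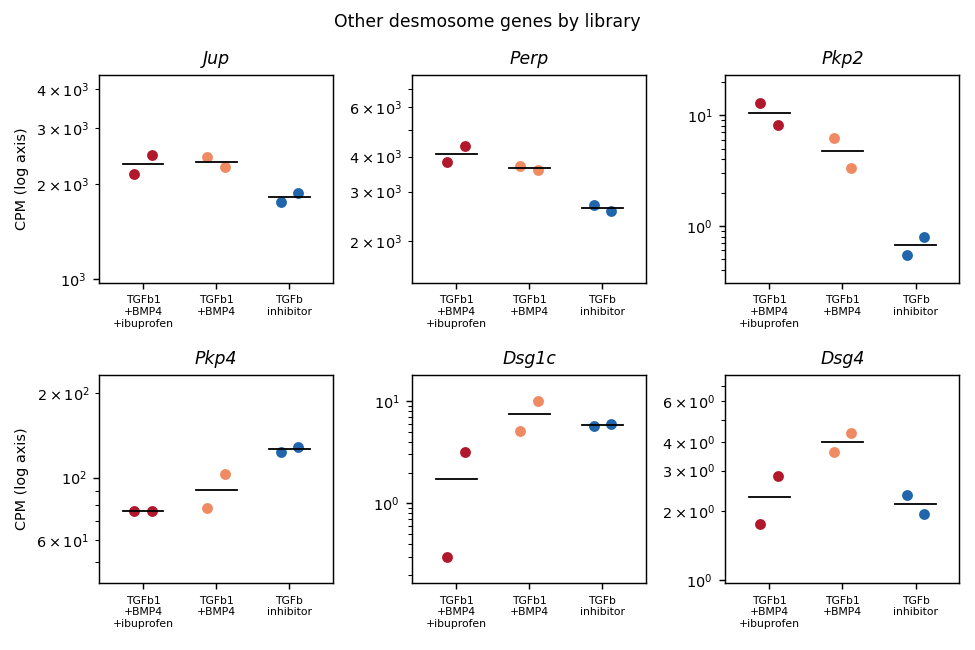
CPM of the 6 other desmosome genes in each library on a log axis whose range differs by panel; points are libraries, with replicate 1 left of replicate 2, and black lines are group means. Pkp2 stands at 13.0 and 8.14 CPM with ibuprofen, 6.20 and 3.35 with TGFb1+BMP4 and 0.55 and 0.80 with the inhibitor, and Pkp4 is highest with the inhibitor (123 and 129 CPM).

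Genes that act with Dsg1 and Dsc1 in the upper layers were counted from fixed lists. Of 6 genes of the cornified envelope and its attachment to desmosomes, TGFb1+BMP4 over the inhibitor gave 1 higher and 4 lower, ibuprofen over TGFb1+BMP4 gave 3 lower, and ibuprofen over the inhibitor gave 1 higher and 5 lower. Over all tested genes, in the same order, the shares higher were 20.4%, 10.7% and 20.8%, and the shares lower 19.9%, 9.01% and 19.9%. Tgm3, a transglutaminase that cross-links the envelope, was at 2.90 and 6.90 CPM with ibuprofen, 105 and 151 CPM with TGFb1+BMP4 and 319 and 324 CPM with the inhibitor, an order like that of Dsc1. Its log2 change was -4.45 ± 0.29 for ibuprofen over TGFb1+BMP4 (adjusted p = 5.97e-05). The plakins Evpl and Ppl, which bind to desmosomes from the envelope, were lower with ibuprofen than with TGFb1+BMP4 (-0.55 ± 0.14, 0.0233, and -0.52 ± 0.13, 0.0223), calls lost without TGFb1+BMP4 replicate 1 (0.096 and 0.0946) or ibuprofen replicate 1 (0.134 and 0.122). The gene in the other direction was Ivl, an envelope precursor, at 20.5 and 11.4 CPM with ibuprofen, 18.8 and 18.7 CPM with TGFb1+BMP4 and 1.00 and 1.05 CPM with the inhibitor.

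Of the 4 suprabasal keratins, 1 was called higher and 2 lower with TGFb1+BMP4 over the inhibitor, and 3 lower with ibuprofen over TGFb1+BMP4, beside 20.4% higher and 19.9% lower, then 9.01% lower, over all tested genes. Krt10, the suprabasal keratin of skin, was at 7.80 and 11.8 CPM with ibuprofen, 854 and 1241 CPM with TGFb1+BMP4 and 16.6 and 44.9 CPM with the inhibitor, the same order as Dsg1a. Krt4 and Krt13, the suprabasal keratins of the esophagus, had the order of Dsc1: Krt13 was at 634 and 1116 CPM with ibuprofen, 3587 and 2759 CPM with TGFb1+BMP4 and 9331 and 8073 CPM with the inhibitor. Of 3 basal keratins, Krt5 and Krt14 were higher and Krt15 lower with TGFb1+BMP4 over the inhibitor (0.86 ± 0.11, 1.66 ± 0.16 and -2.32 ± 0.39, adjusted p = 0.000558, 8.41e-05 and 0.002). Krt15 was at 4.05 and 5.80 CPM with ibuprofen, 29.5 and 22.6 CPM with TGFb1+BMP4 and 220 and 80.7 CPM with the inhibitor. The inhibitor libraries were far apart, and the Krt15 change was -1.61 without inhibitor replicate 1 and -3.02 without replicate 2, both called. The Krt4 fall with TGFb1+BMP4 was lost without inhibitor replicate 1 (0.0798). Leaving out the first TGFb1+BMP4 library gave -3.12 for Krt4, and leaving out the second gave -1.18. The Krt10 rise with TGFb1+BMP4 was 4.49 without inhibitor replicate 1 and 5.89 without replicate 2.

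Of 7 listed proteases and inhibitors that act on desmosomal cadherins, 6 passed the filter, all but Klk5. With ibuprofen over TGFb1+BMP4, 1 was higher (Adam17) and 2 lower (Klk8 and Klk14), beside 10.7% higher and 9.01% lower over all tested genes. The Adam17 call was lost when any 1 library other than ibuprofen replicate 2 was left out (0.0677 to 0.191). Klk14, a kallikrein that cuts desmoglein 1 in human epidermis, was at 24.1 and 121 CPM with ibuprofen, 833 and 995 CPM with TGFb1+BMP4 and 1682 and 1744 CPM with the inhibitor, and fell by 3.97 ± 0.57 log2 units between the first pair of groups (adjusted p = 0.00209). Without ibuprofen replicate 1 and 2 in turn the change was -2.83 and -5.12 for Klk14, and -1.15 and -2.34 for Klk8, all called. With TGFb1+BMP4 over the inhibitor, 1 of the 6 was called higher and 2 lower, beside 20.4% and 19.9% over all tested genes. The gene called higher was Adam10, a membrane protease that sheds DSG2 in human cells (0.49 ± 0.10, limma adjusted p = 0.0053). Klk7 and Klk8 were lower (-1.84 ± 0.37 and -1.34 ± 0.31, limma adjusted p = 0.00455 and 0.00897). Grhl1, a transcription factor of epidermal differentiation which binds the Dsg1a promoter in mouse skin, was at 170 and 236 CPM with ibuprofen, 355 and 364 CPM with TGFb1+BMP4 and 441 and 413 CPM with the inhibitor. It was lower with ibuprofen than with TGFb1+BMP4 (-0.77 ± 0.14, adjusted p = 0.00738), while TGFb1+BMP4 over the inhibitor gave -0.24 ± 0.14 (0.219).

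The genes whose profile lay nearest to each member were found by the Euclidean distance of log2 values over the 6 libraries, after centring each gene, among 11348 genes. This describes likeness in these libraries alone. Nearest to Dsg1a were Tgm7 (distance 1.53) and Calml3 (2.34), with Tgm7 at means of 0.474 CPM with ibuprofen, 106 with TGFb1+BMP4 and 11.9 with the inhibitor. Nearest to Dsg1b were Sdr9c7 (0.264) and Sprr3 (0.648), and Sprr3, a cornified envelope precursor, had means of 386, 1075 and 1931 CPM in the same order. Nearest to Dsc1 were Lce1f (1.02), a late cornified envelope gene, and Ly6c1 (1.24), and Lce1f had means of 0.325, 10.99 and 81.3 CPM. Mgat4a and Aldh1l1 were nearest to Dsg2, Mydgf and Tmem98 to Dsg3, Mon1a and Tom1 to Dsc2, Ak3 and Arhgap32 to Pkp3, and Amt and Gtf2b to Dsp, at distances of 0.0840 to 0.214. Dsc3 (Zfp706, Rwdd1) and Pkp1 (Mfsd14b, Vkorc1l1) varied so little, with distances of 0.290 and 0.222 from their own means, that their nearest genes show only flatness. Among the 10 genes themselves, Dsc3 and Pkp1 were the closest pair (0.356), Dsc2 lay nearest to Dsp (0.416), and Dsc1 was the farthest gene from Dsg2 (8.31).

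The authors' deposited table gives its own log2 fold changes over the inhibitor group. For Dsg1a the authors' deposited table lists 3.50 for TGFb1+BMP4 and -2.92 with ibuprofen, and for Dsc1 it lists -3.60 and -7.62. The authors' deposited table also holds 1 adjusted p per gene, with no comparison named. That value was under 0.05 for 1 of the 10 genes, Dsg1a (0.0449). For the other genes called here with TGFb1+BMP4 over the inhibitor, it was 0.0682 (Dsc1), 0.0824 (Dsg3), 0.220 (Dsp), 0.249 (Dsg2) and 0.269 (Dsc2). The share of all genes under 0.05 by that value is not reported here, so the count of members cannot be set against it.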

How the data were processed

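Bulk RNA sequencing was deposited for 6 libraries. Per the submitters' processing notes, STAR 2.5.3a, Cell Ranger 3.1.0, HTSeq and edgeR were used with GRCm38/mm10; which step each served, and how shared or antisense reads were counted, is not given in the sources used here. The deposited table holds, for each library, a signal scaled by the authors to a near-constant total, and CPM derived from it. The authors also deposited log2 fold changes and, per gene, 1 p-value and 1 adjusted p-value whose comparison is not named. Read numbers were recovered from the regular steps of the scaled values (every value within 0.211 of a whole read) and served for depth and 1 alternative test. They were not counts as deposited, so the planned edgeR test was not run, and the 1 alternative test on them was voom. PCR copies are not independent molecules, so the limit of 3 reads covers counting error only.

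CPM were divided by TMM factors (trims of 30% and 5%), log2(value + 1) was taken, and limma 3.58.1 (R 4.3.3) was fitted with 1 term per group over 6 libraries, a variance trend, 3 residual degrees of freedom, moderated 2-sided tests and Benjamini-Hochberg adjustment. The fit was tested on simulated data. The weighted TMM form over all genes was settled on after a first fit with unweighted factors on tested genes had been seen. It follows an earlier processing of these files, and it changes the calls of Dsp, Jup and Pkp3, so both forms are reported. Same-numbered libraries had deviations correlated at 0.19, 0.258 and 0.174, with fewer than 3 pairs per comparison.

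The members and gene lists were chosen with earlier results of these data known. Named are all 10 members, the 6 other desmosome genes and the 2 nearest genes per member. Of each other list, up to 3 genes with the smallest adjusted p in each comparison are named. Cdh1, Plec, Klk5 and Dcn were added after their values were seen. Itgam stands on 2 rows, of which the higher was used. Some listed genes, and the counts that rest on them, are not reported here. Transcript lengths and overlaps are from GENCODE vM21 (52489 genes matched), and promoters from RefSeq.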

Additional observations from a re-analysis of the deposited data

How the results depend on the processing

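The calls of Dsg1a, Dsg2 and Dsc1 with TGFb1+BMP4 over the inhibitor, and of Dsg1a and Dsc1 with ibuprofen over TGFb1+BMP4, held under every alternative run: no scaling factors, RLE factors, TMM without weights, pseudocounts of 0.5 and 0.1, no filter, a filter of 5 CPM, the replicate block, voom on recovered reads, and leaving out each library. Voom, TMM without weights, and leaving out libraries for genes of the other lists were added after seeing the data. The planned count test (edgeR) was not run, since the deposited values are not counts. Counts of members under other settings are given without the share of all genes called under the same setting. A shift in such a count may therefore not be particular to the members. With no filter, 2 members were called higher with TGFb1+BMP4 over the inhibitor and 2 lower with ibuprofen over TGFb1+BMP4. With voom, 2 were higher with ibuprofen over the inhibitor. Leaving out 1 library gave 2 to 4 higher and 1 to 3 lower with TGFb1+BMP4 over the inhibitor, 0 to 1 higher and 2 to 5 lower with ibuprofen over TGFb1+BMP4, and 1 higher and 2 to 5 lower with ibuprofen over the inhibitor. TMM without weights ended the calls of Dsp (adjusted p = 0.0598) and Jup (0.0546) with TGFb1+BMP4 and of Pkp3 with ibuprofen over TGFb1+BMP4 (0.0527). RLE factors did the same (0.0548, 0.0503 and 0.0501). No filter ended those of Dsc2 (0.0934), Dsp (0.0693) and Jup (0.0798), and with ibuprofen over TGFb1+BMP4 those of Dsg1b (0.122), Pkp3 (0.0972), Dsg1c (0.133) and Pkp2 (0.133). The replicate block changed 1 call of the 10, Dsc2 with ibuprofen over TGFb1+BMP4 (log2 change -0.52, adjusted p = 0.0316), and no other call.

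Signs turned only for values that were not called. Without scaling factors Jup gave -0.028 with ibuprofen over TGFb1+BMP4, and Dsg3 gave -0.007 with ibuprofen over the inhibitor. Leaving out 1 library gave ranges with TGFb1+BMP4 over the inhibitor of -0.021 to 0.10 for Pkp1 and -0.14 to 0.67 for Dsg1c. With ibuprofen over TGFb1+BMP4 they were -0.47 to 0.19 for Dsg2, -0.062 to 0.15 for Jup, -0.21 to 0.079 for Dsc3 and -0.006 to 0.20 for Pkp1. With ibuprofen over the inhibitor they were -0.018 to 0.14 for Dsg3, -0.26 to 0.19 for Dsc2 and -0.14 to 0.36 for Dsg4. Per kilobase of exon, the Dsg1a and Dsg1b share was 49.5% with TGFb1+BMP4 and 43.2% with the inhibitor. Leaving out 1 library gave shares of 3.38% to 12.1%, 35.9% to 42.7% and 30.3% to 30.7% with ibuprofen, TGFb1+BMP4 and the inhibitor, and Dsc1 shares of 0.0288% to 0.0726%, 0.330% to 0.936% and 7.72% to 8.36%. The cause of these shifts was not tested. With 2 libraries per group, and 5 and 16 reads of Dsc1 in the ibuprofen libraries, depth limits how closely the lowest levels are known.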

Other observations

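Genes of other anchoring junctions were counted beside the desmosome genes. Of 6 hemidesmosome genes, which fix basal cells to their matrix, 4 were called higher (Itga6, Itgb4, Col17a1, Cd151) and 1 lower (Plec) with TGFb1+BMP4 over the inhibitor, where 20.4% of all tested genes were higher and 19.9% lower. The Plec call was lost without either inhibitor library or TGFb1+BMP4 replicate 1 (0.0638 to 0.111). Itga6, an integrin subunit of that junction, was at 1766 and 1944 CPM with ibuprofen, 1840 and 1664 CPM with TGFb1+BMP4 and 727 and 753 CPM with the inhibitor. Both ligand groups lay above the inhibitor libraries, as for Dsg2, and the log2 change of TGFb1+BMP4 over the inhibitor was 1.25 ± 0.11 (limma, adjusted p = 7.04e-05). For ibuprofen over TGFb1+BMP4, the shares over all tested genes were 10.7% higher and 9.01% lower. With ibuprofen over TGFb1+BMP4, 1 of the 6 was called, Cd151, a tetraspanin that binds laminin integrins (0.48 ± 0.12, adjusted p = 0.0228), a call lost without TGFb1+BMP4 replicate 2 (0.132) or ibuprofen replicate 1 (0.136).

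Of 9 adherens junction genes, 3 were higher with TGFb1+BMP4 over the inhibitor, beside 20.4% of all tested genes: Ctnnd1 (0.73 ± 0.09, adjusted p = 0.000462), Vcl (0.71 ± 0.10, 0.000614) and Ctnna1 (0.34 ± 0.11, 0.0375). The Ctnna1 call was lost without either inhibitor library or TGFb1+BMP4 replicate 1 (0.129 to 0.211). Cdh1, or E-cadherin, was at 608 and 617 CPM with ibuprofen, 713 and 541 CPM with TGFb1+BMP4 and 635 and 635 CPM with the inhibitor, and was not called. Its ratio for TGFb1+BMP4 over the inhibitor was 0.983 with a 95% interval of 0.790 to 1.22. With ibuprofen over TGFb1+BMP4, Ctnnd1 was higher (0.33 ± 0.09, adjusted p = 0.0403, lost when any 1 library other than TGFb1+BMP4 replicate 1 was left out) and Afdn, the nectin-binding scaffold afadin, lower (-0.65 ± 0.10, adjusted p = 0.00259). Among all 9 genes the median log2 change was 0.21 in the first comparison and 0.18 in the second, beside -0.003 and -0.008 over all tested genes. In the second, 10.7% of all tested genes were called higher and 9.01% lower, beside 1 and 1 of the 9.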
